A study of Mus musculus with 130 samples.

Results

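The embryos described here are the control embryos of a single-embryo RNA-seq series, ranked by how much of 10 oocyte-derived transcripts they still held at the 2-cell stage. The score of an embryo was the mean over Gdf9, Bmp15, Zp1, Zp2, Zp3, Mos, Btg4, Oosp1, Nlrp5 and Zar1 of log2(CPM + 1), where CPM is the count relative to the total count of the embryo (the usual CPM scale). Levels of the score genes are given as plain CPM, and levels of all other genes as CPM scaled with TMM factors. Members were chosen by these measured values: the 16 control embryos with the highest scores were set against the 16 with the lowest, so 32 of 50 control embryos and of 130 embryos in all were compared, and 18 control embryos fell in neither group. High-score and low-score embryos carry the same labels: B6129F1 mouse embryos of the 2-cell stage, collected as zygotes 5 h after fertilization and exposed from 6 h to 0.1% DMSO in KSOM medium, in humid chambers and with no oil layer. The other 80 embryos were handled in the same way with 10 µM SR1848, a small molecule used to block the nuclear receptor Nr5a2. None of the 80 was chosen by the score. They enter below for their scores, for slopes on the score and for a comparison with the 18 other controls. Each embryo was 1 Smart-seq2 library primed with oligo-dT. The design text gives 56 controls, and the other 6 were not analysed here. The score was measured on these same libraries, so its genes are described without a test. A call on another gene says only that its level went with the score across these embryos. No label gives a litter, a culture drop or a plate, and the p-values measure the spread between embryos, part of which may be technical.

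A mouse egg carries a large store of messenger RNA made during oocyte growth. That store is destroyed in steps: one begins at meiotic maturation with maternal deadenylation and decay factors such as Btg4, and a later one needs transcription from the embryo's own genome, which starts in earnest at the 2-cell stage. The score genes are classic members of the store: Gdf9 and Bmp15 are oocyte growth factors, Zp1 to Zp3 build the zona pellucida, Mos is the kinase of meiotic arrest, Oosp1 is a secreted oocyte protein, Nlrp5 belongs to the subcortical maternal complex and Zar1 binds maternal messages. Oligo-dT priming reads messages with a poly(A) tail, so a shortened tail and a lost message cannot be told apart in these libraries.

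The scores ran from 6.597 to 7.11 with a median of 6.75 in the high-score embryos, against 5.64 to 6.43 with a median of 6.23 in the low-score embryos. The 18 other controls lay in the narrow range between. At the upper boundary the score was 6.597 on the inside and 6.586 on the outside, and at the lower boundary it was 6.428 on the inside and 6.445 on the outside, so the boundaries cut a continuous distribution. The lower tail was longer than the upper one, with control embryos W14, W15, W10 and W13 at 5.64, 5.78, 5.88 and 6.02. The SR1848 embryos ranged from 5.84 to 7.82 with a median of 7.06, and 70 of 80 reached at least the lowest score of the high-score controls.

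**Figure D1:**
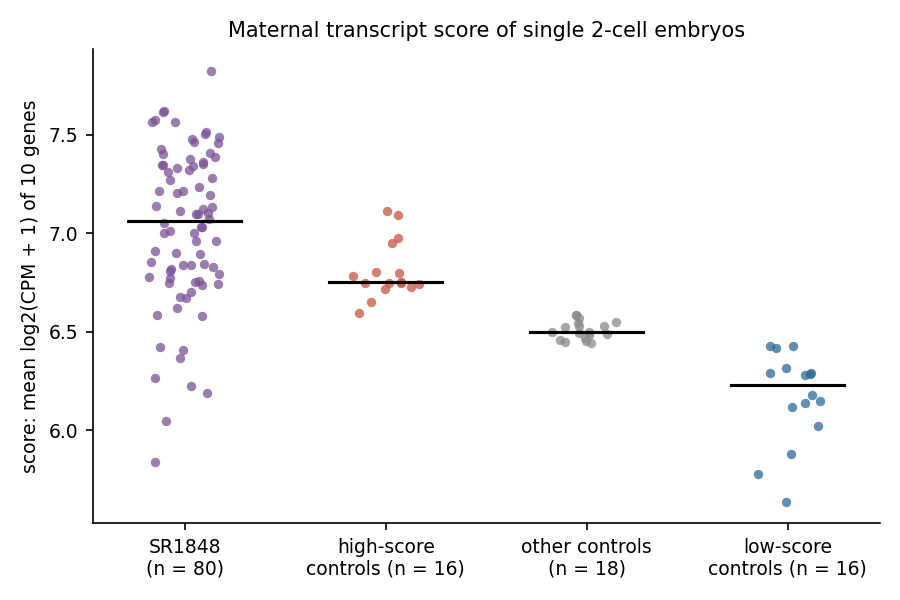
Maternal transcript score (mean log2(CPM + 1) of 10 genes) of each embryo, with the 80 SR1848 embryos on the left, then the 16 high-score, 18 other and 16 low-score controls. Black bars are medians, at 7.06 for SR1848, 6.75 for high-score and 6.23 for low-score embryos. The 3 control groups touch because they were cut from 1 ranking.

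The 10 genes did not contribute alike. Btg4 gave 17.1% of the difference in mean score, Bmp15 13.5%, Mos 13.03% and Oosp1 12.1%, while Nlrp5 gave 4.11% and Zp3 0.944%. Btg4 ran from 391 to 1803 CPM with a median of 803 in high-score embryos, against 196 to 843 CPM with a median of 376 in low-score embryos. Bmp15 ran from 204 to 892 CPM (median 477) in high-score embryos and from 128 to 506 CPM (median 262) in low-score embryos. Both ranges overlap between the groups, with most of the high-score embryos above the low-score median. Zp3 hardly separated them, at medians of 93.0 and 85.5 CPM in high-score and low-score embryos. Mos was low, with medians of 2.80 CPM in high-score and 0.491 CPM in low-score embryos, and it was at 0 in 5 of the 32. The 10 genes together held 0.179 to 0.390% of counts in high-score embryos and 0.0971 to 0.215% in low-score embryos.

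Ranking the embryos by part of the score gave values for the genes that were left out of that ranking, as a description with no test. With embryos ranked by Gdf9, Bmp15, Zp1, Zp2 and Zp3 alone, the log2 fold change between the 16 highest and 16 lowest was 0.73 for Oosp1, 0.73 for Btg4, 0.50 for Zar1, 0.15 for Mos and -0.00 for Nlrp5. With embryos ranked by Mos, Btg4, Oosp1, Nlrp5 and Zar1 alone, it was 0.85 for Bmp15, 0.58 for Zp2, 0.42 for Gdf9, 0.37 for Zp1 and -0.16 for Zp3. The genes left out thus ranged from well above 0 to at or below it in both rankings. The rankings by 5 genes each named 10 high and 9 low embryos in common.

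Depth was similar in both ends. The library totals, in estimated counts, were 3774136 to 7973406 in high-score embryos and 3140419 to 7137216 in low-score embryos. Of 7 library measures compared by permutation test (two-sided, 100000 resamples, Benjamini-Hochberg over the 7), none passed. The nearest was the share of counts in the 100 most abundant genes, 25.9 ± 2.81% in high-score and 23.6 ± 2.72% in low-score embryos (SD, n = 16 each; p = 0.0265, adjusted p = 0.186). Genes detected at a common total of 3140419 counts were 15641 ± 360 in high-score and 15432 ± 384 in low-score embryos (permutation adjusted p = 0.294), and mitochondrially encoded genes took 4.60 ± 1.25% and 4.37 ± 1.43% of counts in those groups. Markers of other cells were counted too: 1 of 10 cumulus and granulosa markers, 0 of 8 sperm markers and 2 of 6 blood markers had counts enough for testing, and none passed. The summed cumulus and granulosa markers ran from 0.524 to 19.7 CPM in high-score and from 0.230 to 11.2 CPM in low-score embryos, with 2 of the 10 at 0 in all 32. The summed blood markers ran from 6.57 to 148 CPM (median 41.4) in high-score and from 11.9 to 77.7 CPM (median 35.3) in low-score embryos. Most of this was the globin gene Hba-a2, at 36.3 ± 41.8 CPM in high-score and 27.4 ± 18.6 CPM in low-score embryos (SD, n = 16 each; edgeR adjusted p = 0.688), and the part of these markers in the results was not tested.

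Outside the score, embryos rich in the 10 transcripts were also rich in many other transcripts of the oocyte store. Of 12162 genes tested, 214 (1.76%) were higher and 37 (0.304%) lower in high-score embryos (edgeR quasi-likelihood test, Benjamini-Hochberg adjusted p under 0.05). The differences were modest: the median log2 fold change was 0.90 over the higher genes (0.42 to 1.64) and -0.75 over the lower genes (-1.31 to -0.45), beside -0.03 over all genes, and 82 higher and 6 lower genes reached 2-fold. In no gene (0.0% of those tested) were the 16 high-score and 16 low-score embryos fully apart. At an unadjusted p under 0.05 there were 1993 genes. The called genes were more abundant than most, with a median of 60.6 CPM for the higher and 66.5 CPM for the lower genes against 24.9 CPM for all.

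Leaving out control embryos W10 to W15, which hold 4 of the low-score embryos and 1 of the high-score ones, left 47 higher and 3 lower genes, although all 214 and all 37 kept their direction and the median log2 fold change of the 214 was still 0.76. This setting was chosen after seeing the data. It removes the 4 lowest scores together with a run of neighbouring embryo numbers, which cannot be told apart here. Of the genes described below, Tcl1, Oas1c, Oas1f, Spin1, Nlrp4f, Wee2, Dnmt3l, Kpna7, Trim60, Trim61, Tgfb2, Pramel34 and Egfr kept their calls in that setting, and the other called genes described, all named lower genes among them, did not. Some of these genes lost their calls in the rankings by 5 genes. Those were Spin1, Dnmt3l, Kpna7, Tgfb2 and Egfr when ranked by Mos, Btg4, Oosp1, Nlrp5 and Zar1. When ranked by Gdf9, Bmp15, Zp1, Zp2 and Zp3, they were Oas1f and Nlrp4f. With embryo W14 alone left out, 141 genes were higher. A set without W2, W11 and W13, also added afterwards, gave 123 higher and 22 lower.

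**Figure D2:**
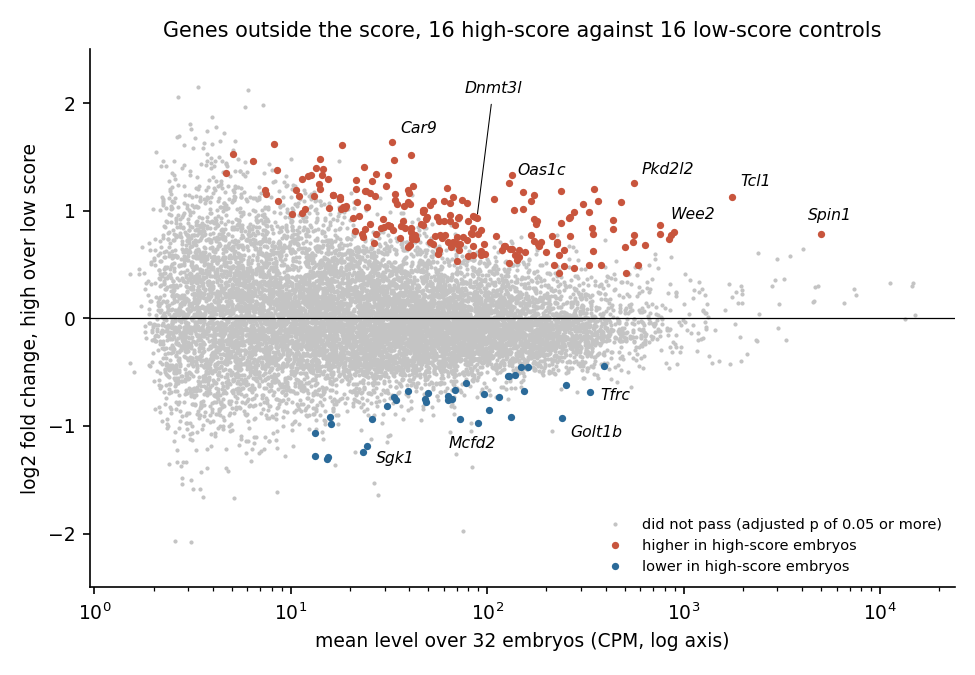
Each point is 1 of the 12162 genes outside the score, by its mean level over the 32 embryos (CPM, log axis) and its log2 fold change, high-score over low-score embryos. The 214 genes called higher (red) reach from a few CPM to Spin1, and the 37 called lower (blue) are fewer, with a median of -0.75.

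Known oocyte transcripts outside the score formed the clearest group. Of 42 tested members of a list of such genes, 15 were higher and 0 lower, beside 1.76% and 0.304% of all genes. The median log2 fold change was 0.57 against -0.03 for all genes, and 37 of the 42 had a positive value. Their summed level ran from 20629 to 44680 CPM in high-score embryos and from 13923 to 27944 CPM in low-score embryos, with 14 of 16 high-score embryos above the low-score median. The 15 include Tcl1, Obox1, Obox2, Obox5, Nlrp4f and Npm2. These genes are also counted as calls of other lists below, so the lists are not separate sets.

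Spin1, which encodes spindlin, a protein of the meiotic spindle and reader of histone marks (chromosome 13, 51100880 to 51152546, plus strand, in the GENCODE annotation of GRCm38), was the most abundant gene called higher. It ran from 3541 to 9550 CPM with a median of 6226 in high-score embryos, against 2249 to 5179 CPM with a median of 3541 in low-score embryos (log2 fold change 0.78, SE 0.131, edgeR adjusted p = 0.00084). Each of the 16 high-score embryos lay above the low-score median, and the ranges overlap. Wee2, the oocyte kinase that holds back Cdk1 in meiosis, ran from 572 to 1466 CPM (median 944) in high-score embryos, against 180 to 920 CPM (median 547) in low-score embryos (log2 fold change 0.86, SE 0.166, adjusted p = 0.00352). Kpna7, Bcl2l10, Nobox and Uchl1 are oocyte genes chosen here after their values were seen. Kpna7, an importin of the oocyte and early embryo, ran from 56.6 to 188 CPM (median 83.9) in high-score embryos and from 6.82 to 74.8 CPM (median 38.5) in low-score embryos, again with all 16 high-score embryos above the low-score median (log2 fold change 1.13, SE 0.217, adjusted p = 0.00352). Bcl2l10, a Bcl-2 family protein of oocytes, averaged 347 ± 189 CPM in high-score embryos and 181 ± 52.9 CPM in low-score embryos (SD, n = 16 each; edgeR adjusted p = 0.00575), and Rfpl4, an oocyte RING-finger protein, averaged 191 ± 132 and 75.98 ± 38.9 CPM in those groups. Nobox, the oocyte homeobox factor, and Uchl1, a ubiquitin hydrolase abundant in eggs, were also higher, at log2 fold changes of 0.74 and 0.59, but lost their calls when any 1 of 18 and of 22 of the 32 embryos was left out.

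**Figure D3:**
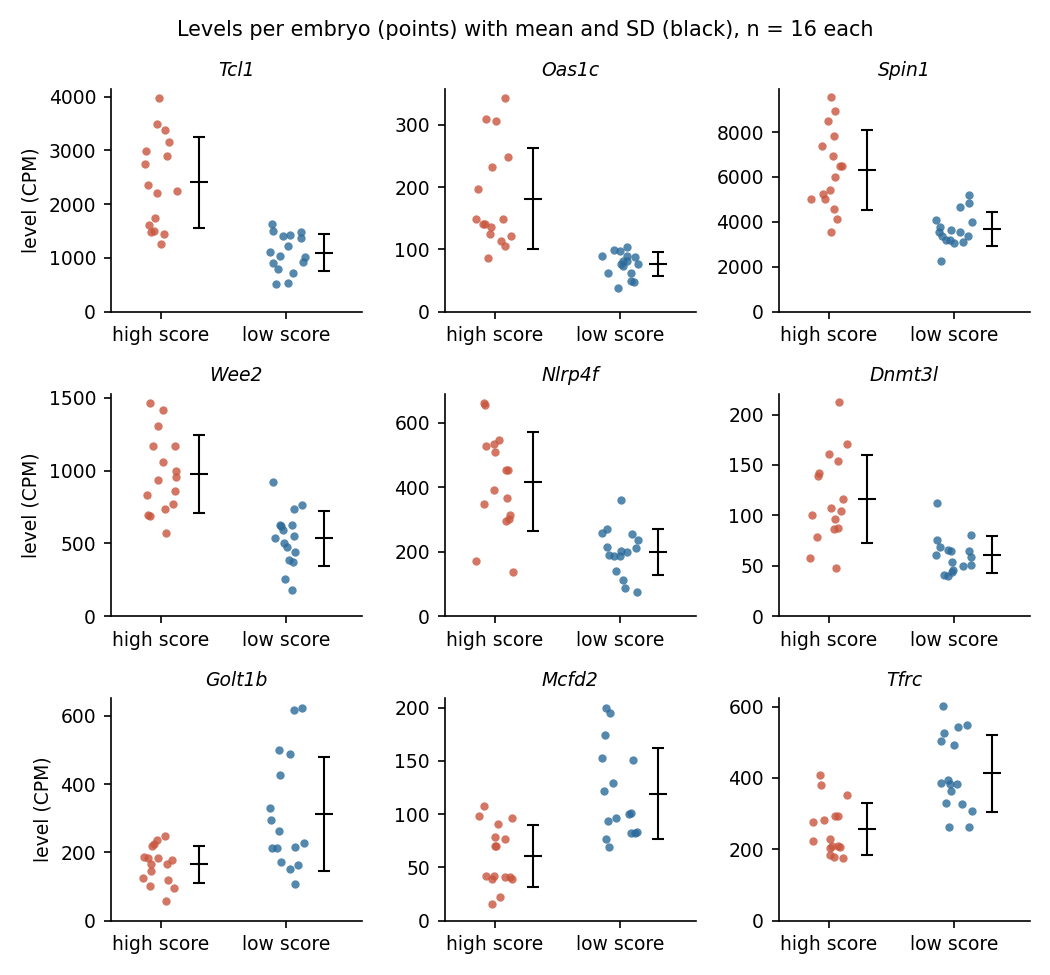
Levels (CPM) in each of the 16 high-score (left, red) and 16 low-score (right, blue) controls, with mean and SD in black. In the upper 6 panels most high-score embryos lie above the low-score median, as for Tcl1 with medians of 2298 and 1073 CPM. In the lower 3 panels most lie below it, as for Tfrc with medians of 227 and 385 CPM. Each pair of groups overlaps.

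The Tcl1 family was higher as a whole. Tcl1 encodes a co-activator of the kinase Akt that the mouse oocyte supplies for the first cleavages, and it lies on chromosome 12 (105216750 to 105222793, minus strand) beside the rodent Tcl1b genes. The family was picked out after its values were seen. Tcl1 itself ran from 1251 to 3971 CPM with a median of 2298 in high-score embryos, against 523 to 1634 CPM with a median of 1073 in low-score embryos. All 16 high-score embryos were above the low-score median, and the lowest high-score embryos overlap the highest low-score ones (log2 fold change 1.13, SE 0.174, edgeR adjusted p = 0.000633). The call on Tcl1 was kept in each of the 32 fits that left out 1 embryo and without W10 to W15. Tcl1b1, Tcl1b2, Tcl1b3, Tcl1b4 and Tcl1b5 were called too, with log2 fold changes from 0.98 to 1.21, but each lost its call without W10 to W15. These copies resemble each other and the estimated counts divide shared reads between them, so the single values are uncertain; the 6 genes summed came to 4057 ± 1563 CPM in high-score embryos and 1872 ± 622 CPM in low-score embryos (SD, n = 16 each).

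The 5 Tcl1b promoters carry a shared arrangement that is shown here because these genes moved together. In the RefSeq windows (250 bases before to 50 after the listed start, GRCm38.p6) each has the letters CACCTG, then 19 other bases, then CAGGTG, a pair of CANNTG motifs, the E-box class bound by basic helix-loop-helix factors such as the oocyte factor Figla. The capitals mark the pair in the 61 bases around it, all on the plus strand of chromosome 12.
Tcl1b1, chr12:105159601-105159661: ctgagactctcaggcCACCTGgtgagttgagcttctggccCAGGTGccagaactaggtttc
Tcl1b2, chr12:105146930-105146990: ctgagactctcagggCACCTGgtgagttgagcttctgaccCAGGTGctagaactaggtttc
Tcl1b3, chr12:105190940-105191000: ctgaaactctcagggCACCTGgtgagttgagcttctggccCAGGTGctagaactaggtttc
Tcl1b4, chr12:105202319-105202379: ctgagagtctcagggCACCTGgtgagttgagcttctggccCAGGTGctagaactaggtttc
Tcl1b5, chr12:105176255-105176315: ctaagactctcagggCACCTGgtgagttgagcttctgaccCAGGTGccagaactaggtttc
The other 4 windows each differ from that of Tcl1b1 at 3 of the 61 bases, and the pair starts 61 to 90 bases before the listed start. The pair reads the same on both strands. It is found in 7 of 27025 promoters in the RefSeq table, 0.0259%, of which 5 are these copies. The pattern was taken from these 5 closely similar sequences. That they share it, and that it is rare elsewhere, therefore says nothing about their levels. The Tcl1 promoter does not hold the pair but has 1 CANNTG, in capitals in its 300 bases.
Tcl1, chr12:105222688-105222987, minus strand: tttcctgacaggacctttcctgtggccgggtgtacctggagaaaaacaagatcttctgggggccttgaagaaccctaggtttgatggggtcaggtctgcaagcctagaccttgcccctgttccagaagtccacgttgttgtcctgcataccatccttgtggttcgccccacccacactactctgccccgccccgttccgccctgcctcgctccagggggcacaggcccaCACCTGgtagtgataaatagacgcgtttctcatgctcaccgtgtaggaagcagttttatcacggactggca
Over all called genes with a promoter in the table, CANNTG on either strand was found in 123 of 162 higher genes (75.9%) and 13 of 31 lower genes (41.9%), against 5863 of 9223 tested genes (63.6%) and 72.1% of all 27025 promoters. The letters AAGGTCA, a site class of Nr5a2 and related receptors, were found on either strand in 2.47% of the higher, 3.23% of the lower and 3.18% of the tested genes. These are matches of letters and say nothing of binding.

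The Oas1 relatives included the call with the smallest adjusted p. Oas1c, one of several 2',5'-oligoadenylate synthetase relatives that mouse oocytes express (chromosome 5, 120800194 to 120812514, minus strand), ran from 85.7 to 343 CPM with a median of 145 in high-score embryos. In low-score embryos it ran from 37.6 to 104 CPM with a median of 78.8. All 16 high-score embryos were above the low-score median, with overlap at the edges (log2 fold change 1.25, SE 0.182, edgeR adjusted p = 0.000365). Of 6 Oas1 genes tested, Oas1c, Oas1e and Oas1f were higher, beside 1.76% of all genes. Oas1d, the most abundant, did not pass at 305 ± 150 CPM in high-score and 218 ± 55.4 CPM in low-score embryos. Trim60 and Trim61, overlapping tripartite-motif genes of chromosome 8 whose reads may be divided between them, were both higher, with summed levels of 1278 ± 460 CPM in high-score and 736 ± 164 CPM in low-score embryos. Both families were chosen after their values were seen.

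Among the other multigene families of the oocyte, the share of members called varied. Of the Obox homeobox genes, the maternally supplied Obox1, Obox2 and Obox5 were higher: Obox5 ran from 166 to 1071 CPM with a median of 452 in high-score embryos, against 58.2 to 445 CPM with a median of 227 in low-score embryos (log2 fold change 1.09, SE 0.253, edgeR adjusted p = 0.0135). Obox7, also counted as maternal, did not pass at 0.70 (adjusted p = 0.187), and Obox3, Obox6 and Obox8 did not pass at 0.15, 0.06 and -0.21. The call on Obox2 was lost when any 1 of 14 embryos was left out. The Pramel family and the Obox genes other than Obox1, Obox2 and Obox5 were also chosen after their values were seen. Pramel genes encode leucine-rich repeat proteins expressed in germ cells. Of 34 tested, 7 were higher and 0 lower, beside 1.76% and 0.304% of all genes. Their log2 fold changes ran from -0.53 to 1.19 with a median of 0.37. A separate list of Pramel and Oog genes had 12 tested, with 2 higher (Oog1 and Oog4) and 0 lower. The median of that list was 0.04, with 6 positive and 6 negative values. Pramel34 averaged 309 ± 85.2 CPM in high-score and 167 ± 46.7 CPM in low-score embryos (SD, n = 16 each; edgeR adjusted p = 0.00084). Of the related Oog genes, Oog1 was higher at 955 ± 377 CPM in high-score against 554 ± 174 CPM in low-score embryos, Oog4 was higher too, and Oog3, the most abundant, had 2896 ± 1153 and 1900 ± 677 CPM in those groups without passing (adjusted p = 0.0655). The call on Oog4 was lost without W2, W10, W11 or W14.

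The subcortical maternal complex is the protein lattice under the egg membrane to which Nlrp5 belongs. Of 16 tested genes of the complex and its partners, 2 were higher and 0 lower, beside 1.76% and 0.304% of all genes. In this list 13 had a positive log2 fold change (median 0.35). Ooep, a core subunit, ran from 17.4 to 50.5 CPM with a median of 27.9 in high-score embryos, against 8.06 to 23.9 CPM with a median of 16.8 in low-score embryos (log2 fold change 0.78, edgeR adjusted p = 0.0103). Nlrp4f ran from 137 to 661 CPM with a median of 422 in high-score and from 75.03 to 362 CPM with a median of 201 in low-score embryos. In both genes at least 14 of 16 high-score embryos were above the low-score median.

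Of 32 maternal chromatin factors tested, 2 were higher and 0 lower, where 1.76% of all genes were higher and 0.304% lower, and the list median was -0.06. The 2 were Dnmt3l, the cofactor of de novo DNA methylation in oocytes, and Npm2, the egg nucleoplasmin. Dnmt3l ran from 47.5 to 212 CPM with a median of 106 in high-score embryos, against 40.1 to 112 CPM with a median of 60 in low-score embryos (log2 fold change 0.93, SE 0.175, edgeR adjusted p = 0.00282). Npm2 averaged 94.4 ± 30.8 CPM in high-score and 56.0 ± 16.9 CPM in low-score embryos (adjusted p = 0.0108). Dppa3, the most abundant gene of the list, which protects the maternal genome from demethylation, averaged 2920 ± 752 and 3100 ± 912 CPM in those groups and did not pass (adjusted p = 0.828).

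The score gene Btg4 belongs to the maternal decay machinery. Of 53 tested genes for deadenylation, decapping, tail lengthening and message storage, Dcp1a was higher and Papola lower, beside 1.76% and 0.304% of all genes, and the median log2 fold change was -0.00. Dcp1a, a decapping activator recruited at meiotic maturation, averaged 268 ± 144 CPM in high-score and 158 ± 55.5 CPM in low-score embryos (edgeR adjusted p = 0.0361), and Papola, a nuclear poly(A) polymerase, averaged 331 ± 71.9 and 451 ± 99.1 CPM (adjusted p = 0.0448). Both calls were fragile, lost when any 1 of 10 embryos for Dcp1a and of 22 for Papola was left out.

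Genes tied to activation of the embryo's own genome came next. Nr5a2, the factor the series is about, was at 54.8 to 177 CPM with a median of 100.9 in high-score embryos and at 77.2 to 140 CPM with a median of 98.8 in low-score embryos (log2 fold change 0.01, SE 0.138, edgeR adjusted p = 0.988). Of 41 tested genes proposed to regulate genome activation, the 3 maternal Obox genes above passed as higher, beside 1.76% of all genes, and the list median was 0.00. Klf17, the most abundant of them, averaged 1385 ± 327 CPM in high-score and 1195 ± 231 CPM in low-score embryos (adjusted p = 0.409), and Dppa4, chosen after its values were seen like Zscan4d below, had 466 ± 157 and 537 ± 95.4 CPM (adjusted p = 0.487).

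Of 26 tested transient 2-cell genes, the short wave of transcripts that marks this stage, 1 was higher and 0 lower. Over all genes 1.76% were higher and 0.304% lower. The 1 called was the zinc finger gene Zfp750. It averaged 29.7 ± 19.9 CPM in high-score and 14.01 ± 7.07 CPM in low-score embryos (edgeR adjusted p = 0.0301, lost when any 1 of 6 embryos was left out). The list median was 0.30 and 22 of 26 members were positive. Zscan4d, a telomere factor of this wave, ran from 12.8 to 80.5 CPM in high-score and from 10.7 to 102 CPM in low-score embryos (adjusted p = 0.866), and none of the 4 Zscan4 genes tested passed. Tcstv3 averaged 29.9 ± 14.4 and 19.3 ± 12.3 CPM (adjusted p = 0.238). None of 14 tested trophectoderm genes passed, and Pou5f1, the pluripotency factor also stored in the egg, had 31.3 ± 13.2 CPM in high-score and 19.8 ± 7.89 CPM in low-score embryos without passing (adjusted p = 0.121).

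Several gene lists leaned the other way, those for protein synthesis among them, with few members passing. Over all genes 46.6% had a positive log2 fold change, 1.76% were called higher and 0.304% lower. Of 81 ribosomal protein genes 75 had a negative log2 fold change (median -0.23), yet 0 passed; Rpl19 averaged 227 ± 71.5 CPM in high-score and 313 ± 98.0 CPM in low-score embryos (edgeR adjusted p = 0.123). The summed ribosomal protein level ran from 10640 to 18503 CPM (median 13847) in high-score and from 9155 to 25181 CPM (median 17014) in low-score embryos, and 2 of 16 high-score embryos were above the low-score median. Translation initiation factors had 36 of 42 negative values and 2 calls, Eif4ebp1, the repressor of cap-dependent initiation, at 46.9 ± 18.6 CPM in high-score and 79.6 ± 28.1 CPM in low-score embryos (adjusted p = 0.0349), and Eif3l, a subunit of eIF3, at 104 ± 31.4 and 151 ± 32.7 CPM (adjusted p = 0.0453). The proteasome list had 35 of 42 negative values with Psma5 called, ribosome biogenesis 54 of 63 with Ddx10 called, and nuclear genes of oxidative phosphorylation 59 of 75 with 0 called. Medians of these 3 lists were -0.21, -0.19 and -0.20. Splicing (55 tested) and RNA polymerase II and general factors (72 tested) had medians of -0.13 and -0.14 with 0 called. The p53 targets (16 tested) had a median of -0.22 with 0 called. Pluripotency factors (22 tested) had a median of -0.18, with Tcl1 called higher. Members of such lists share libraries and often vary together, so the counts of signs are descriptions.

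**Figure D4:**
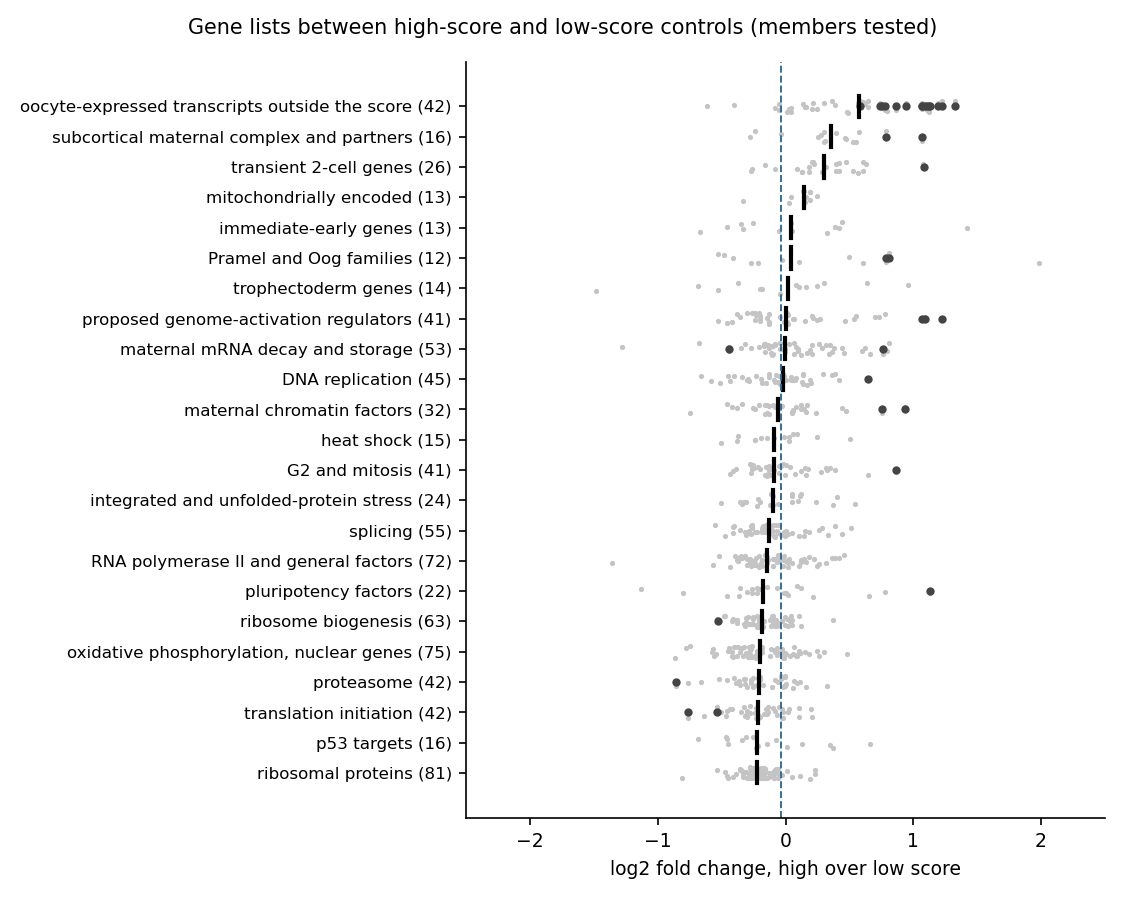
Log2 fold change (high-score over low-score embryos) of the members of each gene list outside the score with at least 10 tested (number in brackets). Grey points are members, dark points are members with adjusted p under 0.05, black bars are list medians and the dashed line is the median of all genes, -0.03. Of the lists drawn, oocyte transcripts lie highest with a median of 0.57, and ribosomal proteins lowest with -0.23.

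The genes with the largest rises were not all classic oocyte genes. Car9, a membrane carbonic anhydrase, ran from 8.73 to 151 CPM with a median of 44.01 in high-score embryos, against 2.80 to 36.9 CPM with a median of 14.02 in low-score embryos (log2 fold change 1.64, SE 0.341, edgeR adjusted p = 0.00575). Pkd2l2, a channel protein of the polycystin family, ran from 239 to 2044 CPM (median 621) in high-score embryos and from 66.8 to 747 CPM (median 291) in low-score embryos, a log2 fold change of 1.26. The others were Ifit1bl2, Rgs2, Rfpl4, Cdh2, Sytl4, Oas1c, Obox2 and Tcl1b5, with log2 fold changes from 1.21 to 1.52. Of these Rgs2, a regulator of G-protein signalling, had the least stable call, lost when any 1 of 19 embryos was left out.

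Tgfb2, Bmp5 and Tgfb3, which encode secreted signals, were among the higher genes too. They were singled out after their values were seen, as were Egfr, Eif4e1b and Fmn2 below, and secreted signals as a class were not counted. Tgfb2 ran from 229 to 979 CPM with a median of 372 in high-score embryos, against 88.7 to 515 CPM with a median of 207 in low-score embryos, with all 16 high-score embryos above the low-score median (log2 fold change 0.98, SE 0.207, edgeR adjusted p = 0.00575). Bmp5 averaged 437 ± 136 CPM in high-score and 253 ± 127 CPM in low-score embryos (adjusted p = 0.0325), and Tgfb3 averaged 32.9 ± 15.9 and 16.1 ± 6.95 CPM (adjusted p = 0.023). The receptor Egfr averaged 72 ± 36.6 CPM in high-score and 33.8 ± 10.5 CPM in low-score embryos (adjusted p = 0.00498). Eif4e1b, the oocyte form of the cap-binding protein, and Fmn2, the formin of spindle migration in oocytes, were higher at log2 fold changes of 1.12 and 0.66. The calls on Bmp5, Tgfb3, Eif4e1b and Fmn2 were lost when any 1 of 9, 1, 17 and 3 embryos was left out, the embryo for Tgfb3 being W9 (log2 fold change 0.90 without it).

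The lower genes named here have varied known roles. Mcfd2, part of a cargo receptor between endoplasmic reticulum and Golgi, ran from 15.3 to 108 CPM with a median of 56.1 in high-score embryos, against 69.3 to 200 CPM with a median of 100 in low-score embryos (log2 fold change -0.98, SE 0.217, edgeR adjusted p = 0.00923). Golt1b, a Golgi transport protein, ran from 56.1 to 248 CPM (median 172) in high-score and from 109 to 623 CPM (median 246) in low-score embryos (log2 fold change -0.93, adjusted p = 0.0146). Tfrc and Nup155 were chosen after their values were seen. Tfrc, the transferrin receptor that brings iron into cells, ran from 176 to 408 CPM (median 227) in high-score and from 262 to 603 CPM (median 385) in low-score embryos (log2 fold change -0.69, SE 0.140, adjusted p = 0.00525). In each of these genes 15 of 16 high-score embryos were below the low-score median. Over the other settings their log2 fold changes came as near to 0 as -0.59 for Mcfd2, -0.53 for Golt1b and -0.39 for Tfrc. Nup155, a nuclear pore protein, averaged 53.1 ± 11.6 CPM in high-score and 84.0 ± 25.3 CPM in low-score embryos, with all 16 high-score embryos below the low-score median (adjusted p = 0.0146).

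The largest falls also included Aar2, Sgk1, Slc35b2, Lrrc58, Acsl4, Psma5, Mrpl17 and Pmpcb, with log2 fold changes from -1.24 to -0.78. Apart from Sgk1, a serum-induced kinase, these calls were lost when any 1 of 2 (Psma5) to 25 embryos was left out. Sgk1 lost its call in 7 other settings, among them limma-voom, both rankings by 5 genes, and 10 against 10 and 25 against 25 embryos, and its log2 fold change ranged from -1.33 to -0.40 over all settings. The number of lower genes was unstable: it was between 10 and 23 when any 1 of W2, W9, W10, W11, W14, W15, W18, W30, W32, W34, W39 or W44 was left out, and between 60 and 66 without W13, W53 or W56.

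Embryos outside both groups were then read in the same way. In the 18 other controls, whose scores span only 6.45 to 6.59, the slope on the score had the same direction for 149 of the 214 higher genes (69.6%, against 47.96% of all genes with a positive slope) and for 26 of the 37 lower genes (70.3% against 52.04%). None of 13671 genes passed there with edgeR (0.0% in either direction), 629 had an unadjusted p under 0.05 and limma-voom called 6. In the 80 SR1848 embryos the slope was positive for 210 of the 214 (98.1%, against 43.8% of all genes) and 190 passed, beside a background of 16.7% of 15066 genes called with a positive slope. Of 36 lower genes tested there, 28 had a negative slope (77.8%, against 56.2% of all genes) and 16 passed, beside a background of 18.7%. The median slope of the 214 was 1.28 log2 units per unit of score, against -0.14 for all genes.

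**Figure D5:**
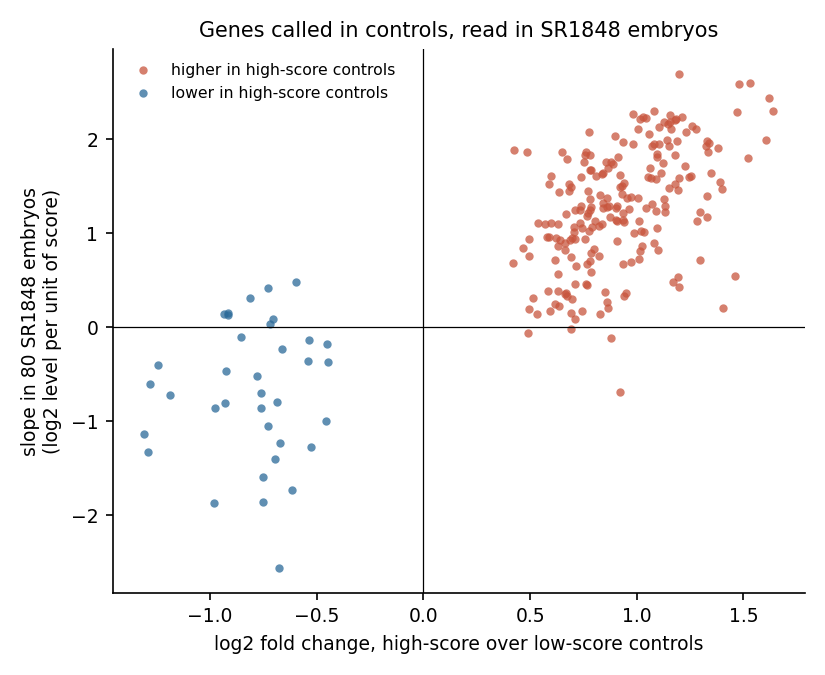
Each point is 1 of the genes called in the controls outside the score, by its log2 fold change (high-score over low-score controls) and its slope on the score in the 80 SR1848 embryos (log2 level per unit of score). Of the 214 higher genes (red) 210 have a positive slope, and of the 36 lower genes tested (blue) 28 have a negative one. Over all genes 43.8% of slopes are positive and 56.2% negative.

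Single genes differed in their slopes in those embryos. The slope was 2.18 for Tcl1 (edgeR adjusted p = 2.38e-16), 1.61 for Oas1c, 1.67 for Spin1, 1.95 for Tgfb2 and 2.15 for Pkd2l2. Rgs2, among the largest rises in the controls, had a slope of 0.20 that did not pass (adjusted p = 0.625), and 1 of the 214 higher genes was called with a negative slope. Among the lower genes Tfrc kept its direction at -0.80 (adjusted p = 0.00157), whereas Psma5 did not pass at -0.10 (adjusted p = 0.812) and Acsl4, Mrpl17 and Slc35b2 had small positive slopes. Of 25 transient 2-cell genes tested there, 6 had a positive slope and the median was -0.33, against -0.14 for all genes. Between high-score and low-score controls, 22 of 26 had a positive log2 fold change. SR1848 embryos also had higher scores than controls as a group, and the part of the treatment in these slopes was not tested.

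The called genes were also read between SR1848 embryos and the 18 other controls, a comparison that shares no embryo with the main one. It is not independent of the score: the median score was 7.06 in SR1848 embryos, and the other controls spanned 6.45 to 6.59. Score and treatment differ together in this comparison, and the part of each was not tested. Of the 214 higher genes 213 were above the controls in SR1848 embryos, against 58.7% of all genes. Of these 197 passed, where 39.7% of all 14469 genes tested were called higher. Of the 37 lower genes 34 were below, against 41.3% of all genes, and 32 passed, where 28.8% of all were called lower. Levels in this comparison were scaled with TMM factors over all 130 embryos, so they are not on the scale of the high-score and low-score levels above. Tcl1 was at a median of 2172 CPM in SR1848 embryos and 1508 CPM in the 18 other controls. Oas1c was at 343 CPM in SR1848 embryos and 125 CPM in the other controls, and Tfrc at 33.6 and 266 CPM in those groups. Of the 3 lower genes that were above the other controls in SR1848 embryos, Sgk1 and Ccdc166, the second named after its values were seen, passed and Lrrc58 did not (log2 fold change 0.48). Sgk1 stood at 120 CPM in SR1848 embryos and 14.6 CPM in the other controls (log2 fold change 2.84, edgeR adjusted p = 6.03e-16). Zscan4d and Tcstv3, which did not pass between high-score and low-score controls, had medians of 160 and 274 CPM in SR1848 embryos against 22.4 and 14.6 CPM in the other controls, while Zfp750 was called higher in both comparisons.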

How the data were processed

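Single 2-cell mouse embryos were profiled by oligo-dT Smart-seq2, per the labels' protocols. The authors deposited estimated counts per transcript; per the submitters' processing notes the tools were kallisto 0.46.1, with Trim Galore 0.6.2 and bcl2fastq, beside DESeq2 1.32.0 under R 3.5.1, and mm10 and hg19 are listed as builds without a role. The authors' normalized values and their table of comparisons were not used here. The deposited table has 119358 entries, of which 117194 carried a gene symbol. The 2159 mouse transcripts without a symbol held 0.935% of counts and 5 other entries 0.0258%. Estimated counts were summed per symbol (35973 symbols) and rounded to whole numbers.

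Embryos were ranked on the score described above. The members, gene lists and comparisons were chosen with earlier results of these data known. Genes were tested with edgeR 4.0.16 in R 4.3.3 (TMM factors, filterByExpr, robust quasi-likelihood test), with Benjamini-Hochberg adjustment over all genes tested and a threshold of 0.05. Slopes used the score as a number in the 18 other controls and in the 80 SR1848 embryos. The fits were first run on simulated counts with planted changes, as a check of the code. The simulated spread between embryos was set below the fitted one, so this check gives no error rate for these data. Genes named are the score genes, Nr5a2, the 10 largest rises and falls with a mean of at least 20 CPM, and the 4 lowest p-values plus the most abundant member of every list; others are said to be chosen after their values were seen. Library measures were compared by permutation. SR1848 and control embryos share numbers in their labels. Of 18 same-numbered pairs, all with the other controls, 2 had a correlation over 0.1 (median 0.0197). The numbers were not treated as pairs, and this check cannot exclude a batch shared by number. Alternatives covered scaling, filters, DESeq2 1.42.0, limma-voom (limma 3.58.1), covariates, other scores and group sizes, and leaving out embryos. Promoter windows came from RefSeq (GRCm38.p6).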

Additional observations from a re-analysis of the deposited data

How the results depend on the processing

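In every setting tried, all 214 higher and 37 lower genes that were tested kept their direction, but the counts of calls moved. Against 214 higher and 37 lower genes, DESeq2 called 386 and 99, the fit without a filter on low counts 782 and 472, the score used as a number over 50 controls 483 and 210, and the fit with detected genes as a covariate 108 and 13. Ranking by Mos, Btg4, Oosp1, Nlrp5 and Zar1 gave 97 and 13, and ranking by the other 5 genes 180 and 106. The first of these kept the calls of 75 of the 214 higher and 11 of the 37 lower genes. The second kept 101 and 12. The score on TMM-scaled CPM gave 60 lower genes and 10 against 10 embryos 105 lower genes. Without W10 to W15 there were 47 and 3, and without W2, W11 and W13 123 and 22. Leaving out 1 embryo gave 141 to 291 higher and 10 to 66 lower genes. List members called, 34 in all lists with repeats, came to 52 with DESeq2, 52 without a filter, 71 with the score as a number, 14 with detected genes as a covariate, 9 without W10 to W15 and 20 without W2, W11 and W13. The cause was not tested.

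Some values near 0 changed sign. The log2 fold change of Nr5a2 was -0.042 with 10 against 10 embryos, -0.0046 with detected genes and -0.024 with the mitochondrial share as covariates, -0.012 with limma-voom, -0.00177 without a filter, -0.033 when ranked by Mos to Zar1, -0.014 with the TMM-scaled score, -0.016 with total counts, -0.045 without W10 to W15, -0.020 without W2, W11 and W13, and from -0.062 to 0.052 with 1 embryo left out. With 10 against 10 embryos Zscan4d was at -0.080, Obox3 at -0.080 and Obox6 at -0.13. Obox3 was at -0.063 when ranked by Gdf9 to Zp3, and Obox6 at -0.020 and -0.028 in the rankings by 5 genes and -0.099 with the score as a number. High minus low, genes detected came to -26.2 when ranked by Mos to Zar1, the mitochondrial share to -0.697 percentage points and the embryo number to -8.69 when ranked by Gdf9 to Zp3, and the embryo number to -2.08 with 25 against 25. The share of the 100 most abundant genes passed with 25 against 25 embryos (2.21 percentage points, permutation adjusted p = 0.0497).

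With a replicate block by embryo number, SR1848 against other controls gave 3857 higher and 3873 lower genes, against 4242 and 3724 without the block on the same embryos; of 18 pairs, 2 correlated best with their own number. A score of polyadenylated transcripts in 1 library per embryo cannot separate biological from technical spread, and the labels give no batch.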
